A study of Mus musculus with 45 samples.

Results

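Hao1 and 6 other genes of hepatic glyoxylate metabolism (Agxt, Agxt2, Grhpr, Hoga1, Prodh2 and Dao) were followed across a dose series of TCDD (2,3,7,8-tetrachlorodibenzo-p-dioxin), a ligand of the aryl hydrocarbon receptor (AhR), in mouse liver. The 7 genes are members of 39179 genes listed in the count data, and 6 of them were among the 17464 genes with more than 4 reads in at least 1 liver. Dao was the exception. Hao1 was selected on its steep fall with dose in these same livers, so its values are given as a description without a test, while the other 6 genes were added because of their place in the pathway. RNA-Seq reads were counted per gene in whole livers of 45 female C57BL/6 mice, 5 in each of 9 groups. The control group was gavaged with sesame oil, and the 8 treated groups with TCDD in sesame oil at 0.01 or 0.03, 0.1 or 0.3, 1 or 3, and 10 or 30 µg/kg. Gavage began on postnatal day 28 and was repeated at intervals of 4 days over 28 days. The labels also call all of the mice ovariectomized and use the word daily for the gavage, and neither is in the methods of the study. Every group, vehicle included, shared the same strain, sex and schedule. Each library came from a separate animal.

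Glyoxylate is a small, reactive 2-carbon acid that the liver makes and removes in peroxisomes, mitochondria and cytosol. Hao1 (glycolate oxidase) oxidizes glycolate to glyoxylate in the peroxisome, and hydroxyproline from collagen turnover gives glyoxylate in mitochondria through Prodh2 (hydroxyproline dehydrogenase) and Hoga1 (4-hydroxy-2-oxoglutarate aldolase). Agxt (alanine-glyoxylate aminotransferase) turns glyoxylate into glycine and Grhpr (glyoxylate and hydroxypyruvate reductase) reduces it to glycolate, whereas glyoxylate that escapes both can be oxidized to oxalate by lactate dehydrogenase. Inherited loss of AGXT, GRHPR or HOGA1 causes primary hyperoxaluria in humans, and glycolate oxidase is a drug target in that disease.

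Hao1 (ENSMUSG00000027261) lies on the minus strand at chr2:134497361-134554368 of GRCm38, with 9 exon blocks in GENCODE. The other members lie on the plus strand, Agxt at chr1:93135240-93145421, Grhpr at chr4:44981395-44990734, Prodh2 at chr7:30493622-30513402, Hoga1 at chr19:42045610-42070953, Agxt2 at chr15:10358532-10410153 and Dao at chr5:114003703-114025682. The exons of Agxt2 share 155 bases with the gene Gm21973 on the same strand (4.9% of its exon length) and those of Hoga1 share 43 bases with 4933411K16Rik (1.9%). Reads wholly within those bases may have been counted for neither gene.

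The sequence just before the start of 3 members is shown because they span the responses of the pathway, from the steepest drop with dose (Hao1) through the next largest (Prodh2) to the smallest change (Agxt2). The sequences are from RefSeq on GRCm38.p6, end before the first base of the annotated gene, and run 5′ to 3′ on the strand of the gene. The windows are chr2:134554369-134554602 (minus strand) for Hao1, chr7:30493408-30493621 (plus strand) for Prodh2 and chr15:10358283-10358531 (plus strand) for Agxt2. Capitals mark letters that matched a searched motif on either strand.
Hao1: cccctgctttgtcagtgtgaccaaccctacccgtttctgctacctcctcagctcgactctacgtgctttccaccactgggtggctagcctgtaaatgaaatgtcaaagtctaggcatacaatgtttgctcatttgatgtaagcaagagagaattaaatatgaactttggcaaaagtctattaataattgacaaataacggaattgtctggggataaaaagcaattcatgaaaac
Prodh2: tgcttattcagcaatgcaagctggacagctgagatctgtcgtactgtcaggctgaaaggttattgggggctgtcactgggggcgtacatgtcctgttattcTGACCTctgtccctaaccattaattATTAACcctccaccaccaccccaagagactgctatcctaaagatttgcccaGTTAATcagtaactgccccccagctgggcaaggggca
Agxt2: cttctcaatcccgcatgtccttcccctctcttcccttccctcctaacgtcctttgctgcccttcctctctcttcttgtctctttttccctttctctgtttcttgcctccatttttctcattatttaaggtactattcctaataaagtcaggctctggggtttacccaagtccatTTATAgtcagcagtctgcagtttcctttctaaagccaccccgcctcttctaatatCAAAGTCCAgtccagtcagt

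The motifs searched in the 250 bases before each RefSeq start were GCGTG, the core of the dioxin response element bound by the AhR, AGGTCA, a nuclear receptor half-site, CAAAGTCCA, an HNF4A-type site, GTTAAT, an HNF1-type half-site, and TATAA. They occurred in 28.16%, 14.02%, 0.38%, 6.43% and 22.78% of 32851 promoter windows of that length, respectively. All 7 members had at least 1 window, with 10 windows in all. The Hao1 window held none of these letters, and neither did those of Agxt and Grhpr. The Prodh2 window held 1 AGGTCA and 2 GTTAAT, seen above as TGACCT and ATTAAC where they lie on the opposite strand. The first window of Agxt2, shown above, held 1 CAAAGTCCA and 1 TATAA (as TTATA). Its second window held these and also 1 AGGTCA, which lies inside the annotated gene. In Dao the second of 3 windows held 1 AGGTCA and the third 2 TATAA, all inside the annotated gene. A window of Hoga1 held GCGTG and 1 GTTAAT, but it lies wholly inside the gene as GENCODE annotates it and so is not sequence before that start. Only exact letters were searched, so a window without a match may still hold close variants of a motif. A match of letters is a description of the sequence and does not show binding.

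Libraries held 11767284 to 56509899 reads on genes, with a median of 17225047. Cyp1a1, the classic AhR target, lay between 1.34 and 16.6 counts per 1000000 reads (CPM) in vehicle livers and between 6020 and 9064 CPM at 30 µg/kg, as the labels of these groups say. The labelled tissue was also plain in the data, with 6 hepatocyte markers summing to between 107850 and 163740 CPM in every library. The pooling of libraries for sequencing is not in the labels, so no values within pools could be given.

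In vehicle livers the 6 detected genes stood within a narrow range once scaled by exon length. Mean RPKM (CPM per 1000 bases of exon, n = 5 mice) was 191 ± 19 (SD) for Agxt, 119.6 ± 12.6 for Hao1, 85.7 ± 9.98 for Prodh2, 81.2 ± 7.47 for Grhpr, 75.96 ± 1.5 for Agxt2 and 73.8 ± 7.74 for Hoga1. The lowest Agxt value was above the highest Hao1 value, and the lowest Hao1 value was above the highest of Prodh2. The ranges of Prodh2, Grhpr and Agxt2 overlapped between neighbours, and so did those of Agxt2 and Hoga1. Hao1 was thus second to Agxt among the members in untreated liver. At 30 µg/kg it was last, at 1.01 ± 1.42 RPKM, with Prodh2 next at 46.8 ± 10.4 RPKM and Agxt still first at 141 ± 18.9 RPKM.

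Hao1 overlapped vehicle at the 4 lowest doses and was lower at each further dose, down to under 1% of its vehicle level. The 5 vehicle livers had 283, 254, 316, 271 and 242 CPM. Mean levels were 299 ± 17.3 (SD), 279.6 ± 63.1 and 272 ± 24.1 CPM at 0.01, 0.03 and 0.1 µg/kg, all overlapping the vehicle range. At 0.3 µg/kg the 5 mice had 256, 231, 214, 230.0 and 189 CPM, so that 1 of them was still inside the vehicle range.

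From 1 µg/kg on, every mouse was below every vehicle mouse. The livers at 1 µg/kg had 202, 218, 174, 152 and 147 CPM, a mean of 65.31% of vehicle, and overlapped those at 0.3 µg/kg. At 3 µg/kg the values were 82.0, 89.4, 89.1, 98.3 and 121 CPM (35.11% of vehicle), below all values at 1 µg/kg. At 10 µg/kg they were 26.2, 13.7, 15.6, 22.4 and 7.55 CPM (6.253% of vehicle), below all values at 3 µg/kg. The last step, to 30 µg/kg, gave 0.541, 0.916, 1.34, 8.08 and 0.641 CPM (0.8431% of vehicle). Here 4 of the 5 mice were below all values at 10 µg/kg, and the fourth mouse, at 8.08 CPM, was just above the lowest mouse of that group.

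**Figure D1:**
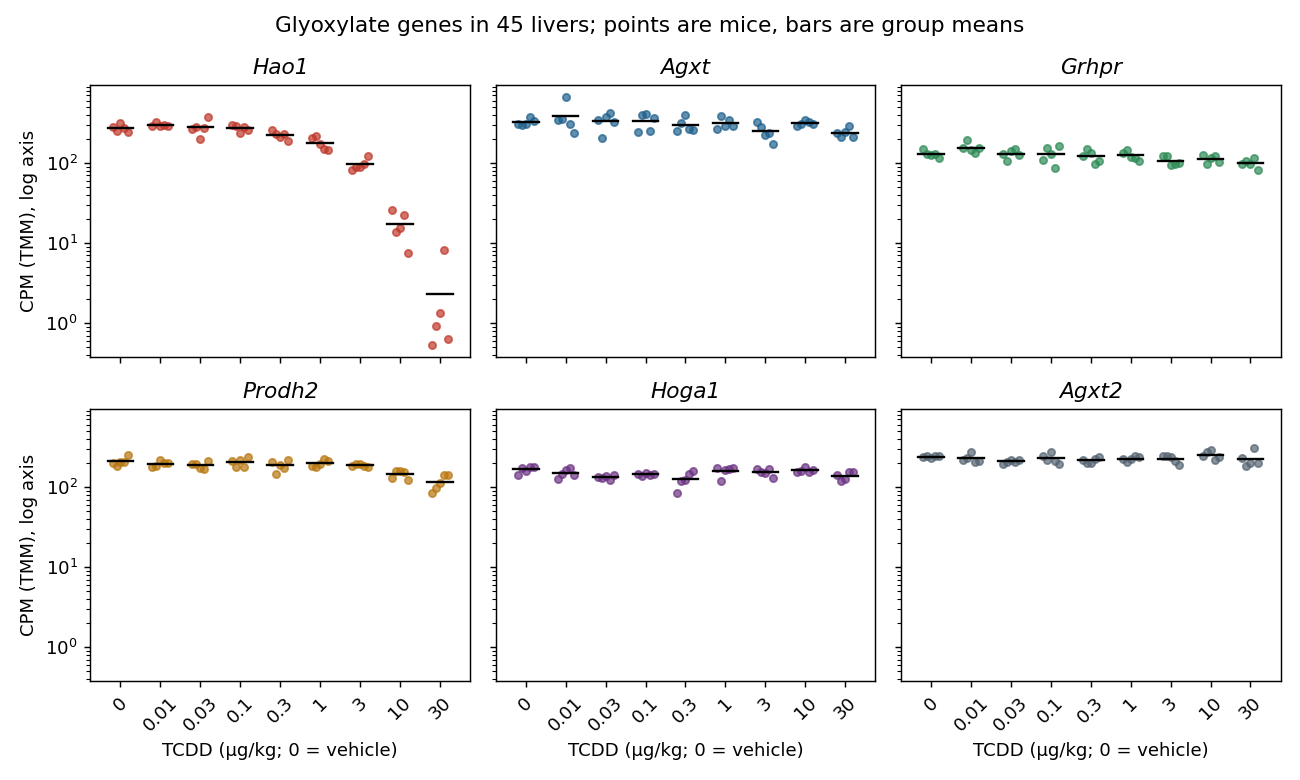
Level of each of the 6 detected glyoxylate genes in CPM after TMM scaling (log axis) against TCDD dose in µg/kg, with 1 point per mouse and a bar at the mean of each group of 5. The Hao1 mean is 273 CPM in vehicle and 2.30 CPM at 30 µg/kg, while the other 5 genes stay between 82.1 and 661 CPM in all livers.

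On the fitted log2 scale the change of Hao1 at 0.3, 1, 3, 10 and 30 µg/kg was −0.29 (SE 0.31), −0.61 (SE 0.31), −1.51 (SE 0.31), −4.00 (SE 0.35) and −6.89 (SE 0.41), in that order. The last 3 values correspond to 2.85-fold, 15.96-fold and 118.9-fold lower levels. The SEs come from 1 estimate of spread shared by all groups, so they do not measure how far mice differed within a dose. That spread was uneven, with a coefficient of variation of 10.96% (group given 0.3 µg/kg), 17.48% (1 µg/kg) and 140.8% (30 µg/kg). The size at 30 µg/kg rested on the mouse at 8.08 CPM, without which the log2 change was −8.24. Reads were few at that dose, 8 to 145 per liver against 3990 to 5134 in vehicle, so single values there carry more counting error. The mouse at 8.08 CPM was the one with 145 reads, and the others had at most 38. The mean log2 CPM of Hao1 crossed the midpoint between vehicle and 30 µg/kg at 8.651 µg/kg by interpolation on the log dose axis, and between 8.064 and 10.01 µg/kg when any 1 of the 45 mice was left out.

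The relative spread of Hao1 between mice was widest at the top 2 doses. Its coefficient of variation was 10.55% in vehicle and 15.82%, 43.0% and 140.8% in the groups given 3, 10 and 30 µg/kg. Of all 17464 genes tested, 995, 190, 10 and 1 had a lower log2 fold change than Hao1 in the groups given 1, 3, 10 and 30 µg/kg, respectively. These ranks describe the gene that was picked for them. The fourth mouse at 30 µg/kg was not low in AhR targets, with 9064 CPM of Cyp1a1 against 6020 to 8489 CPM in the other 4 mice. That mouse also had the highest Agxt, Grhpr, Prodh2 and Agxt2 of its group and the lowest macrophage and leukocyte marker sum, 120.0 CPM against 199 to 309.8 CPM. Its endothelial marker sum (104 against 127 to 164 CPM) and stellate marker sum (203 against 218 to 323 CPM) were the lowest of the group as well. Not all values set it apart, since its hepatocyte marker sum (113400 CPM) was the group median. Its cholangiocyte marker sum (4.96 CPM) was the highest. In the fifth mouse Hoga1 was higher (156.85 against 154.66 CPM) and Prodh2 nearly equal (140.66 against 141.57 CPM). The part of these in its Hao1 value was not tested.

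Of the 5 other tested members, 2 fell at 30 µg/kg and none rose, against 14.1% of all genes tested that were lower and 15.5% that were higher at this dose (edgeR quasi-likelihood test, adjusted p under 0.05). The 2 were Prodh2 and Grhpr. In the group given 10 µg/kg Prodh2 alone fell, against 7.47% of all genes lower and 8.47% higher, and no member rose. DESeq2 and limma gave the same 2 and 1 genes. Without the fourth mouse at 30 µg/kg, described above, 3 members were called, and without the fifth 1 was. A share of 2 in 5 is a count over very few genes, and nothing is read from it about the pathway.

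None of the 5 passed at any of the 6 doses up to 3 µg/kg in edgeR, DESeq2 or limma. From the lowest dose upwards, the background was 0%, 0.0573%, 0.0229%, 0.464%, 1.76% and 7.54% of all genes in either direction. At an unadjusted p under 0.05 in edgeR the counts were 0, 1, 0, 1, 0 and 2. The genes were Hoga1 (doses of 0.03 and 0.3) and both Agxt and Grhpr (dose of 3). The shares above are for adjusted p and none is given at the unadjusted threshold, so nothing is read from these counts. Hoga1 at 0.3 µg/kg had a log2 change of −0.39 (SE 0.11, adjusted p = 0.1384), and passed (adjusted p = 0.03672) without the fifth mouse of that dose.

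**Figure D2:**
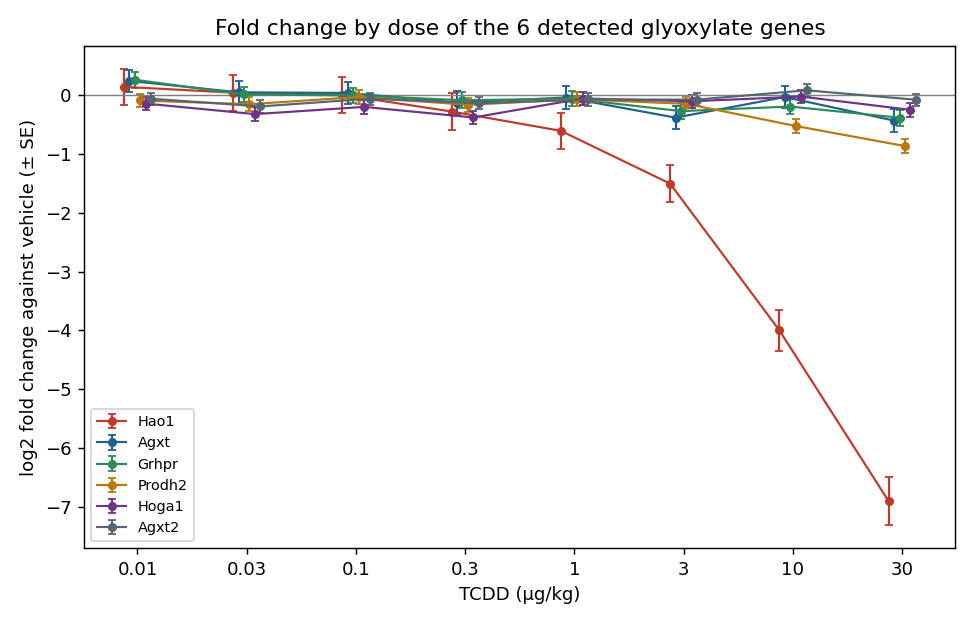
Log2 fold change against vehicle (± SE, edgeR fit of all 45 livers) of the 6 detected genes against TCDD dose in µg/kg, 1 line per gene. Hao1 separates from the others from 1 µg/kg and reaches −6.89, Prodh2 reaches −0.87 and Agxt2 ends at −0.09.

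Prodh2, which starts the mitochondrial breakdown of hydroxyproline, showed the clearest fall after Hao1. Vehicle livers had 202, 186, 208, 206 and 252 CPM. At 10 µg/kg the 5 livers had 132, 161, 159, 155 and 121 CPM, a log2 change of −0.53 (SE 0.12, adjusted p = 0.001038). At 30 µg/kg they had 85.1, 96.5, 112, 142 and 141 CPM, a log2 change of −0.87 (SE 0.12, adjusted p = 1.675e-07) or 1.831-fold lower. Both groups lay wholly below the vehicle group, and the 2 dose groups overlapped each other. Up to 3 µg/kg the group means stayed between 187 and 205 CPM, with ranges that overlapped vehicle.

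Hoga1, which cleaves the last intermediate of that route into glyoxylate and pyruvate, moved less. Its vehicle livers had 140.0, 176, 158, 180.2 and 180.1 CPM and those at 30 µg/kg had 140.1, 119, 127, 155 and 157 CPM. The groups overlapped and the log2 change of −0.26 (SE 0.11, adjusted p = 0.08169) did not pass, although it did without the first vehicle mouse (adjusted p = 0.04209). Its mean at 10 µg/kg was 163 ± 9.70 CPM against 167 ± 17.5 CPM in vehicle. The Prodh2 to Hoga1 ratio of RPKM within each liver, which no scaling of libraries can alter, was 0.9709 to 1.326 in vehicle, and 0.6739 to 0.9178 and 0.5579 to 0.8409 in the groups given 10 and 30 µg/kg. Neither of the 2 high-dose groups overlapped vehicle in that ratio.

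Grhpr, which returns glyoxylate to glycolate, fell slightly at the top dose. Its vehicle livers had 149, 128, 126, 131 and 117 CPM and those at 30 µg/kg had 97.6, 104, 97.5, 114 and 82.1 CPM, so the groups did not overlap. The log2 change was −0.39 (SE 0.13, adjusted p = 0.02174), or 1.312-fold lower. This call was lost with no composition scaling (log2 change −0.18, adjusted p = 0.3504), with p-values adjusted over all doses together (adjusted p = 0.07308), without the first vehicle mouse (adjusted p = 0.07205) and without the fifth mouse at 30 µg/kg (adjusted p = 0.07583). The values at 10 µg/kg (113 ± 12.8 CPM) overlapped vehicle, with a log2 change of −0.20 (SE 0.13, adjusted p = 0.3248).

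Agxt, the main route from glyoxylate to glycine, had 310.3, 298, 303, 376 and 337 CPM in vehicle and 234, 212, 246, 291 and 213 CPM at 30 µg/kg. Every treated liver was below every vehicle liver, yet the log2 change of −0.44 (SE 0.19, 95% interval −0.83 to −0.06, adjusted p = 0.07743) did not pass in the fit of all groups. It passed when vehicle and 30 µg/kg were fitted alone (adjusted p = 0.00537) and without the fourth mouse at 30 µg/kg (adjusted p = 0.04664). No steady decline with dose preceded it, since the mean was 248 ± 56.6 CPM at 3 µg/kg and 316 ± 19.98 CPM at 10 µg/kg. One liver at 0.01 µg/kg reached 661 CPM, where the other 4 of its group lay between 238 and 356 CPM.

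Agxt2, a mitochondrial aminotransferase that can also use glyoxylate, was the member closest to its vehicle level at 30 µg/kg. Vehicle livers had 238, 243, 233, 243 and 244 CPM and those at 30 µg/kg had 233, 186, 202, 309.9 and 201 CPM. The log2 change of −0.09 had a 95% interval from −0.30 to 0.12 (adjusted p = 0.5746), which does not include a halving. At 0.03 µg/kg its 5 livers (193 to 221 CPM) all lay below the vehicle livers, with a log2 change of −0.20 (SE 0.10, adjusted p = 0.4539) that did not pass. The vehicle livers differed by little (coefficient of variation 1.976%), and those at 30 µg/kg by more (21.97%).

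Dao (D-amino acid oxidase), a peroxisomal enzyme of kidney that can form glyoxylate from glycine, had 0 reads in all 45 livers. A count of 0 allows up to 3 reads, which is 0.05692 to 0.2667 CPM per library and 0.003171 CPM over all of them, counting error only. Kidney tubule markers were likewise near 0, with 2 of 4 at 0 in all livers and a sum of at most 0.0863 CPM in any liver.

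**Figure D3:**
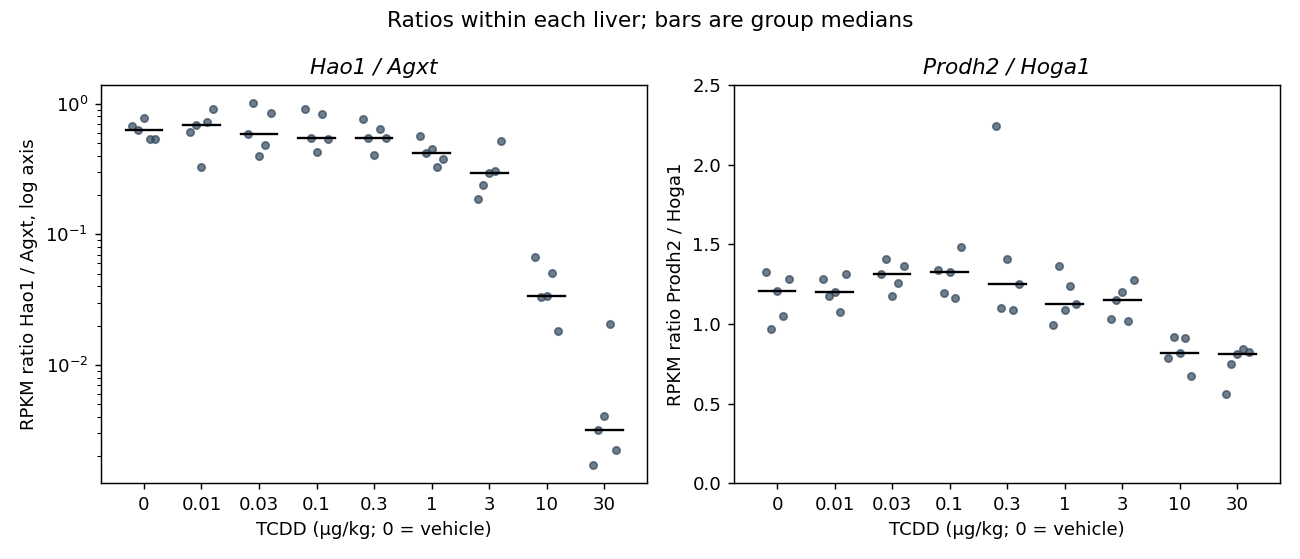
Ratio of RPKM values within each liver against TCDD dose in µg/kg, Hao1 to Agxt on the left (log axis) and Prodh2 to Hoga1 on the right (linear axis from 0), with 1 point per mouse and a bar at the group median. The Hao1 to Agxt ratio falls from a median of 0.6334 in vehicle to 0.003208 at 30 µg/kg, and the Prodh2 to Hoga1 ratio from 1.208 to 0.8089.

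The balance between Hao1, which forms glyoxylate, and Agxt, which removes it, shifted at the RNA level within single livers. The Hao1 to Agxt ratio of RPKM was 0.5333 to 0.775 in vehicle. It was 0.3295 to 0.5644 and 0.1881 to 0.5144 in the groups given 1 and 3 µg/kg, and 0.01813 to 0.06676 and 0.001717 to 0.02064 in those given 10 and 30 µg/kg. The ranges left that of vehicle only from 3 µg/kg, a higher dose than for Hao1 itself. Hao1 made up 16.64% to 22.19% of the summed RPKM of the 6 genes in vehicle and 0.06416% to 0.7524% at 30 µg/kg. The Grhpr to Agxt ratio, in contrast, was 0.3664 to 0.5095 in vehicle and 0.4071 to 0.5213 at 30 µg/kg. As Hao1 is part of the first 2 measures, they describe its values on another scale and add no independent support.

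Genes that act beside the members were counted from 6 lists, of which the first held 12 genes of side reactions of glyoxylate and of oxalate handling. At 30 µg/kg 5 of the 12 fell and 1 rose (median log2 change −0.15, against 0.02 over all genes tested). The shares of all genes tested that passed, 15.5% higher and 14.1% lower, are the background for each of the 6 lists. Hao2, a peroxisomal 2-hydroxy acid oxidase related to Hao1, had 30.1, 18.8, 20.6, 33.4 and 16.5 CPM in vehicle and 8.61, 2.58, 8.06, 5.46 and 4.33 CPM at 30 µg/kg. The groups did not overlap, and the log2 change was −2.01 (SE 0.55, adjusted p = 0.004655). Hao2 varied widely at low doses, from 0.314 to 29.1 CPM between mice at 0.3 µg/kg, unlike Hao1.

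Hyi, a putative hydroxypyruvate isomerase, fell by 1.36 on the log2 scale (adjusted p = 7.96e-08) and Glo1, which detoxifies methylglyoxal, fell by 0.97 (adjusted p = 5.024e-06). Cat (catalase), which removes the peroxide made by Hao1, and Slc26a1, a sulfate and oxalate transporter, fell by 0.34 (adjusted p = 0.001731) and 0.35 (adjusted p = 0.02952), both with groups that overlapped vehicle. With no composition scaling neither call held, at log2 changes of −0.13 (adjusted p = 0.1974) and −0.14 (adjusted p = 0.3724). Slc26a1 also did not pass in the fit of vehicle and 30 µg/kg alone (adjusted p = 0.07068) or without vehicle mouse 2 or 4 or mouse 1, 2 or 3 at 30 µg/kg (adjusted p = 0.0519 to 0.21). Ldha, the lactate dehydrogenase subunit that can oxidize glyoxylate to oxalate, was the gene that rose. It had 301, 269.9, 279.8, 232 and 248 CPM in vehicle and 429, 479.7, 471, 380.1 and 490.0 CPM at 30 µg/kg, with no overlap and a log2 change of 0.76 (SE 0.16, adjusted p = 0.0002955).

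Among 12 genes of proline and hydroxyproline metabolism 2 rose and 2 fell at 30 µg/kg (median log2 change 0.07), near the background of 15.5% and 14.1%. Pepd, the dipeptidase that frees proline and hydroxyproline, rose by 1.01 (SE 0.08, adjusted p = 2.392e-13) from 43.8 ± 2.76 to 88.4 ± 7.25 CPM. It had already passed at 1 µg/kg, with a log2 change of 0.54 (adjusted p = 1.579e-05). P4ha2, a subunit of collagen prolyl hydroxylase, rose by 0.92 (adjusted p = 0.003173). The aspartate aminotransferases Got2 and Got1 fell by 0.41 (adjusted p = 1.357e-05) and by 0.85 (adjusted p = 0.03445). Got1 did not pass without vehicle mouse 3 or 4 or mouse 1 or 2 at 30 µg/kg, with adjusted p of 0.05281, 0.1019, 0.1043 and 0.1008. Prodh, the proline counterpart of Prodh2, had a log2 change of 0.13 (SE 0.21, adjusted p = 0.6897), and Aldh4a1, which acts between Prodh2 and Hoga1, of 0.02 (SE 0.11, adjusted p = 0.933).

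Of 11 glycine and serine genes 10 were tested, and 1 rose and 2 fell (median log2 change −0.08). Shmt1, the cytosolic enzyme that interconverts serine and glycine, fell by 1.21 (SE 0.10, adjusted p = 5.247e-13), from 292 ± 30.0 to 126 ± 18.1 CPM, after a log2 change of −0.46 at 3 µg/kg (adjusted p = 0.001395). Sds (serine dehydratase) fell by 0.92 (adjusted p = 0.01993), a call lost without mouse 1 (adjusted p = 0.05787) or mouse 2 (adjusted p = 0.06651) at 30 µg/kg. Psat1, an enzyme of serine synthesis, rose by 2.53 (adjusted p = 0.0001082) from a low level of 0.593 ± 0.397 CPM, with overlapping groups. Its change was between 1.864 and 2.993 when single mice were left out and 1.184 with limma on variance-stabilized counts.

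Hao1 works in the peroxisome, and of 7 other peroxisomal oxidases, Hao2 and Ddo of the first list among them, 4 fell and 1 rose at 30 µg/kg (median log2 change −0.98). Besides Hao2, the ones that fell were Uox (urate oxidase) by 1.13 (adjusted p = 4.742e-06), Paox (polyamine oxidase) by 1.08 (adjusted p = 8.403e-06) and Pipox (pipecolate and sarcosine oxidase) by 0.98 (adjusted p = 2.169e-08). All 4 lay wholly below vehicle. Acox2, which acts on bile acid intermediates, rose by 0.93, and Acox3 and Ddo did not pass. None of these reached the scale of Hao1, as the levels at 30 µg/kg were 4.039-fold lower for Hao2 and 2.195-fold lower for Uox.

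Of the 16 peroxins, which build peroxisomes and import their enzymes, 2 rose and 3 fell at 30 µg/kg (median log2 change 0.03), against 15.5% of all genes higher and 14.1% lower. Pex2, Pex7 and Pex6 fell by 0.55, 0.48 and 0.45, and Pex26 and Pex10 rose by 0.51 and 0.28. Pex6 did not pass with no composition scaling (log2 change −0.24, adjusted p = 0.05289). Pex10 did not pass in 9 of 18 alternatives, 6 of them with 1 mouse left out (adjusted p = 0.05079 to 0.1259).

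Among 11 hepatocyte transcription factors 3 fell and none rose (median log2 change −0.25). Cebpa fell by 0.90 (adjusted p = 1.903e-05), from 235 ± 41.3 to 126 ± 17.5 CPM. Foxa3 and Nr5a2 fell by 0.87 (adjusted p = 0.01358) and 0.45 (adjusted p = 0.03023). Foxa3 did not pass without vehicle mouse 3 (adjusted p = 0.06627), and Nr5a2 did not pass without vehicle mouse 2 or 4 or mouse 2, 3 or 5 at 30 µg/kg (adjusted p = 0.05401 to 0.1276). Hnf4a, named here after its value was seen because its motif was searched, had 463 ± 48.02 CPM in vehicle and 501 ± 67.1 CPM at 30 µg/kg (log2 change 0.11, adjusted p = 0.5718).

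**Figure D4:**
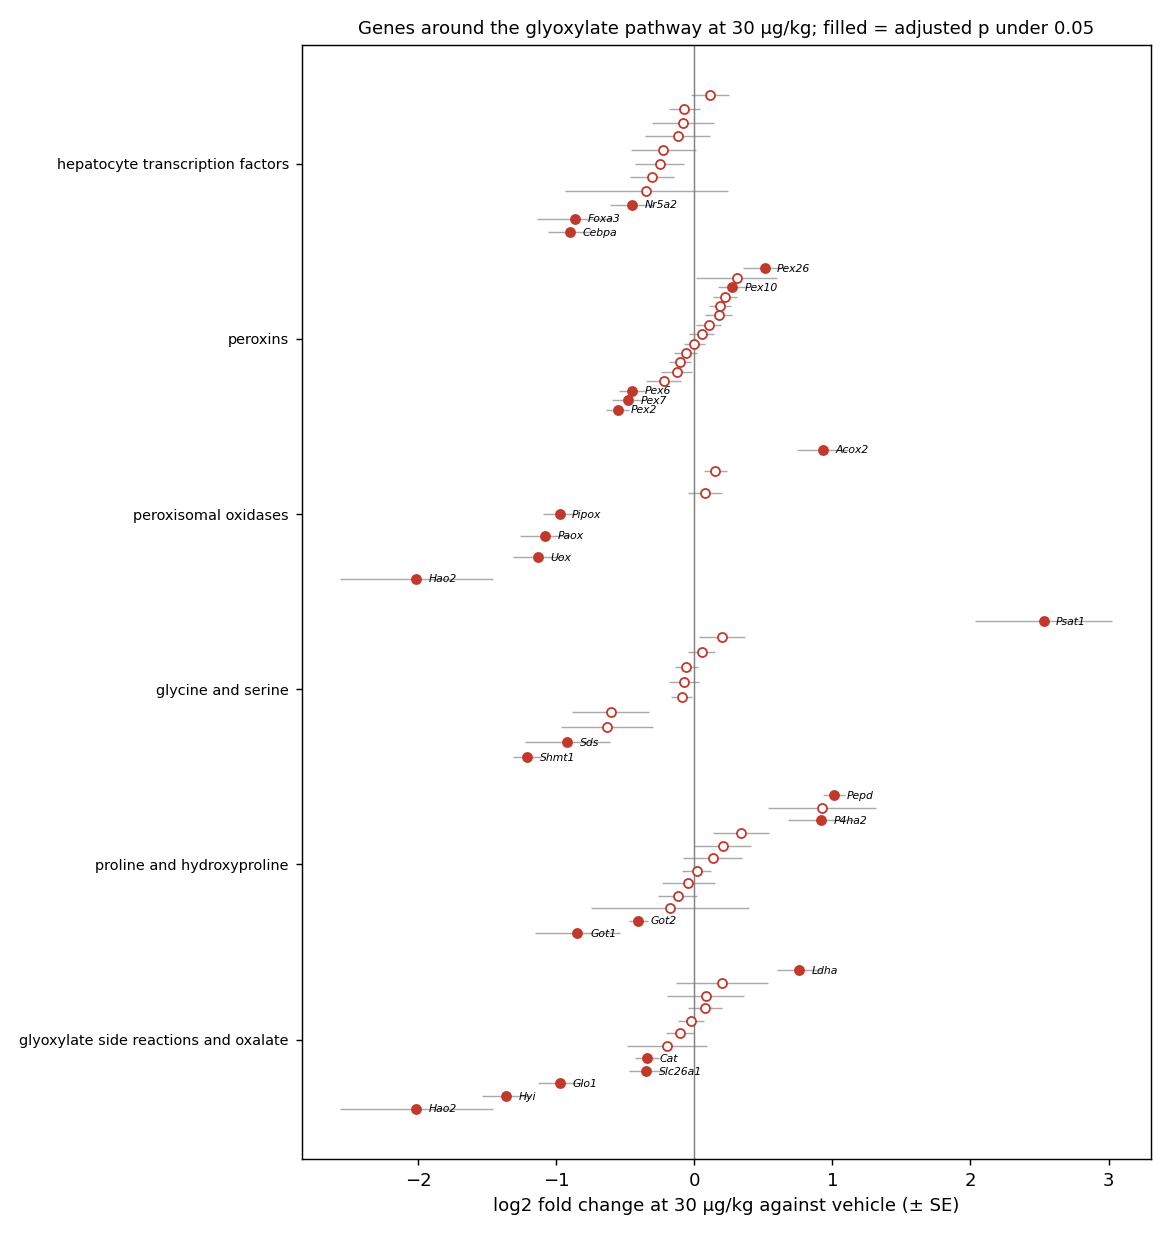
Log2 fold change at 30 µg/kg against vehicle (± SE) of the tested genes of 6 lists around the glyoxylate pathway, 1 point per gene, filled and named where the adjusted p was under 0.05. Peroxisomal oxidases lie mostly to the left, from −2.01 for Hao2, with Acox2 at 0.93 on the right, whereas peroxins lie on both sides of 0.

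The directions of the small changes depended on scaling. Without composition scaling the median log2 change of all genes at 30 µg/kg moved from 0.02 to 0.23, and the counts of higher and lower genes became 1 and 3 for side reactions, 4 and 1 for proline, 2 and 2 for glycine and serine, 2 and 4 for oxidases, 8 and 2 for peroxins and 1 and 1 for transcription factors. Shares of all genes called under that scaling are not given, so these counts lack a background and nothing is read from them. Hao1 was at −6.54 or lower under every alternative processing of all mice.

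Bulk liver RNA cannot tell fewer cells of a type from less RNA per cell. The 6 hepatocyte markers summed to 117150 to 147630 CPM in vehicle and 107850 to 157970 CPM at 30 µg/kg. Of these markers 4 fell, with log2 changes of −0.34 to −1.67 (median of all 6 −0.49). Alb, 1 of the 2 that were not called, had a log2 change of −0.08 (adjusted p = 0.6502). With means of 111470 CPM in vehicle and 105530 CPM at 30 µg/kg, Alb made up most of the sums. Their overlap therefore does not describe the other markers. Of the 6 macrophage and leukocyte markers 3 rose and none fell, the sum being 111 to 185 CPM in vehicle and 120.0 to 309.8 CPM at 30 µg/kg. The 4 stellate cell markers summed to 83.2 to 103 CPM and 203 to 323 CPM, with 2 higher, and the 4 endothelial markers to 90.0 to 116 CPM and 104 to 164 CPM, with 2 higher. None of the 4 cholangiocyte markers passed, and their sums were 3.90 to 5.76 CPM and 4.46 to 4.96 CPM. The background for these counts is again 15.5% of all genes tested higher and 14.1% lower, and each list is very short. None of the markers of these 5 lists was at 0 in all livers. The part of these shifts in the members' values was not tested.

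The 5 genes whose dose profiles lay nearest to that of Hao1 were found by the root mean square difference of log2 fold changes over the 8 doses, among 13608 genes with a mean of at least 10 reads. They were Slc13a2, a dicarboxylate transporter (0.5785), the sulfotransferases Sult3a1 (0.6777) and Sult3a2 (0.7768), Slco1a1, an organic anion transporter (0.8088), and Mup3, a major urinary protein (1.041). They were picked for this likeness and were not tested. Sult3a1 had 128 ± 36.02 CPM in vehicle and 2.35 ± 3.42 CPM at 30 µg/kg, and Mup3 had 3006 ± 700.2 and 146 ± 88.4 CPM. Slc13a2 and Sult3a2 had few reads (means of 1.91 and 1.89 CPM in vehicle), and their fitted values at 30 µg/kg depend on the prior count. Slco1a1 varied strongly between vehicle mice (67.1 ± 72 CPM). Reads that aligned to several near-identical Sult3a or Mup paralogs were left out of the counts, so the levels of these genes are uncertain.

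**Figure D5:**
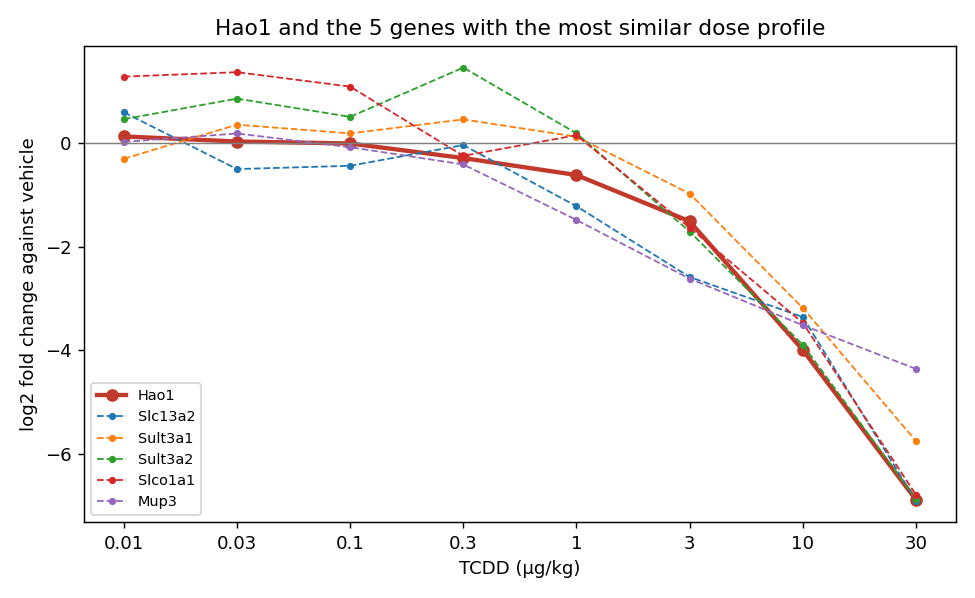
Log2 fold change against vehicle over the 8 TCDD doses in µg/kg for Hao1 (thick line) and for the 5 genes with the smallest root mean square difference from it (dashed lines). At 10 µg/kg the 6 genes lie between −4.00 and −3.19, and at 30 µg/kg Mup3 is the highest at −4.36.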

How the data were processed

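Total liver RNA was sequenced with a TruSeq RNA kit, 1 library per mouse. Per the labels and the methods of the study, the authors aligned reads to GRCm38 with TopHat 1.4.1 and counted them per Ensembl gene with HTSeq 0.6.1, and the deposited values are raw counts, with reads aligned to several places left out. Rows naming no gene held 45.271% to 60.95% of alignments and were set aside here. Genes with more than 4 reads in any sample were tested with edgeR 4.0.16 (R 4.3.3), with TMM scaling, a single fit of the 45 libraries, quasi-likelihood tests of each dose against vehicle and Benjamini-Hochberg adjustment within a dose over all 17464 genes, so groups share 1 estimate of spread and all comparisons share the vehicle mice. DESeq2 1.42.0, limma 3.58.1 and other scalings, filters and left-out mice were alternatives. CPM were TMM-scaled and RPKM used GENCODE exon lengths. On simulated data at 30 µg/kg over 17464 genes, 80% of 50 genes with a true log2 change of −1, and 46% of 50 with −0.6, were recovered. The members, lists, motifs and tests were chosen with earlier results of these data known. Text named all members, up to 4 passing genes per list by size of change at 30 µg/kg, Hao2, Ldha, Prodh, Aldh4a1 and the 5 genes nearest to Hao1. Cat, Slc26a1, Acox2, Acox3, Ddo, Pex10, Hnf4a, Alb and Cyp1a1 were named after their values were seen. The list of oxidases leaves out 1 gene that is not reported here. Mice were numbered in accession order within groups. Figures were drawn with matplotlib.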

Additional observations from a re-analysis of the deposited data

Results flagged for a closer look

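Of 54 groups of 5 mice tested for a value far from the others, 3 held one, and chance alone flags about 1 group in 20. Hao1 stood at 8.08 CPM in the fourth mouse at 30 µg/kg, where the other 4 mice had at most 1.34 CPM. Agxt stood at 661 CPM in the third mouse at 0.01 µg/kg, where the next highest had 356 CPM. Hoga1 stood at 120.2 CPM in the second mouse at 1 µg/kg, where the next lowest had 164 CPM. No other member was far from its group in any of these 3 mice by the same measure.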

How the results depend on the processing

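No log2 change of a member or named gene that passed the test changed sign under any alternative, while the peroxins (2 higher, 3 lower) became 8 and 2 and the proline genes (2 and 2) 4 and 1 with library size only. The count of the other members changed at 30 µg/kg (2) became 1 with library size only, 1 with adjustment over all doses together and 0 when a change of 2-fold or more was also required, and ranged from 1 to 3 with single mice left out, reaching 1 without the fifth mouse at 30 µg/kg. At 10 µg/kg (1) it became 0 under that fold rule. At 0.3 µg/kg (0) it became 1 with adjustment over all doses together and ranged from 0 to 1 with single mice left out. The same fold rule left 2 genes of glyoxylate side reactions (of 6), 1 of proline metabolism (of 4), 3 peroxisomal oxidases (of 5), 0 peroxins (of 5) and 0 transcription factors (of 3). With vehicle and 30 µg/kg alone in the fit 5 glycine and serine genes were called (of 3 before), and with library size only 10 peroxins were called. Under that scaling Foxa3, Got1, Nr5a2 and Pex6 no longer passed (adjusted p = 0.05495, 0.07888, 0.2798 and 0.05289), and with adjustment over all doses together Got1, Nr5a2, Sds, Slc26a1 and Pex10 did not (adjusted p = 0.107, 0.09662, 0.06794, 0.09477 and 0.1176). The cause of these shifts was not tested, other than the stricter rule on fold. Shares of all genes called under these alternatives are not given, so the member and list counts above have no background beside them. Prodh2 passed at 10 and 30 µg/kg under all 18 alternatives of its fold change. No paired analysis applied, because each mouse received 1 dose and gave 1 library, and mouse numbers only follow accession order. Depth limits Hao1 at 30 µg/kg (8 to 145 reads) and Psat1. The changes of Grhpr, Agxt and Hoga1 at 30 µg/kg are smaller than the smallest simulated log2 change of −0.6, of which 46% were recovered. That share is not given by read level, so it does not measure how readily these well-covered genes are called. Cat and Got2 passed at this dose with log2 changes of −0.34 and −0.41.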
